A study of Mus musculus with 7 samples.

Results

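The high mobility group (HMG) genes encode small, abundant, non-histone proteins of chromatin. They were followed here in sorted LT-HSCs (long-term haematopoietic stem cells), marrow cells able to rebuild blood after transplantation. The members were taken by symbol, 9 genes of the 54347 in the count table: Hmgn1, Hmgn2, Hmgn3 and Hmgn5 of the HMGN family, Hmga1 and Hmga2 of the HMGA family, and Hmgb1, Hmgb2 and Hmgb3 of the HMGB family. All 9 held enough counts to be tested. The family was selected on the measured CPM of Hmgn3, which stood about 2-fold higher in the libraries of Emcn-deficient mice with no overlap between the groups, so every KO against WT value of a member below is a description of the contrast that chose it and supports nothing.

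The study sequenced RNA of LT-HSCs sorted from bone marrow of female mice of the strain labelled C57BL/6N-EMCN em1(IMPC)Wtsi /WtsiH. The 4 WT libraries (wt_284, wt_290, wt_310 and wt_312) came from Emcn+/+ littermate controls. The 3 KO libraries (ko_306, ko_314 and ko_320) came from Emcn-/- mice, which lack endomucin, a sialomucin of the cell surface. Each library is 1 mouse, with 3000 to 5000 sorted cells. The labels used here do not give the age of the mice.

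HMGN proteins bind the nucleosome core particle through a short, strongly conserved stretch and compete with linker histone H1 for chromatin. HMGA proteins bind the minor groove of AT-rich DNA through AT-hook motifs, and HMGB proteins bend DNA through HMG boxes. In blood stem cells Hmga2 is best known as a target of the let-7 microRNAs, which the RNA-binding protein Lin28b holds down in fetal cells, and Hmgb1 is also known outside the cell as a danger signal.

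The stretch that defines the HMGN family is shown first, because it is what the 4 HMGN members share and what the counts must tell apart. The 24 bases in capitals encode the nucleosome-binding core, with 6 coding bases on either side, 5′ to 3′ on the coding strand, which is the minus strand of GRCm38 for all 4 genes. The cores lie at chr16:96127311-96127334 (Hmgn1), chr4:133966766-133966789 (Hmgn2), chr9:83114773-83114796 (Hmgn3) and chrX:109010857-109010880 (Hmgn5).
Hmgn1: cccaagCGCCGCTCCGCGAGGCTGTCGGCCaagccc
Hmgn2: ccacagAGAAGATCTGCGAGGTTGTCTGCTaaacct
Hmgn3: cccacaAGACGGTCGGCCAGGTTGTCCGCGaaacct
Hmgn5: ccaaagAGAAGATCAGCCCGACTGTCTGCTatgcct
The core of Hmgn3 covers codons 25 to 32 of 99, and all 4 cores encode the same residues. At the DNA level the Hmgn3 core differs from that of Hmgn1 at 8 bases, from that of Hmgn2 at 6 and from that of Hmgn5 at 8. Counted from 1 at the first base of the core, the Hmgn2 differences are C4A, G6A, G9T, C12G, C21T and G24T, of which C4A alone falls on the first base of a codon and the others on the third. The proteins around this core differ in length: Hmgn1 has 96 codons, Hmgn2 has 90, and Hmgn5, which carries a long acidic tail, has 406.

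The libraries held 6444134 to 11101774 counts. Emcn, the deleted gene, had 130 to 327 counts in each WT library and 1, 0 and 0 in the KO libraries. The 16 stem cell markers were all tested, and their summed level ran from 2229 to 3667 CPM (counts put on one library size by TMM factors) in WT and from 3297 to 3612 in KO, with the lowest value in wt_284. That library stood apart in markers of other cells. Its 18 neutrophil and monocyte markers summed to 15326 CPM, where the remaining WT mice had 264 to 1337 and the KO mice 218 to 718. Its 15 erythroid markers summed to 5799 CPM, against 719 to 1725 and 726 to 966 in the same 2 sets of mice, and its 29 cycling-cell markers to 6275 CPM, against 2781 to 4642 and 2898 to 4235. The megakaryocyte and platelet markers ran from 89.9 to 210.1 CPM in WT and from 124 to 176 in KO, and the endothelial markers, which include Emcn, from 105 to 143 and from 86.8 to 105. The log2 differences of the members and the medians of the lists are therefore also given without wt_284. In such bulk samples, fewer cells of a type and less RNA per cell cannot be told apart.

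Hmgn3 (ENSMUSG00000066456.14, chr9:83109948-83146685, minus strand) encodes an HMGN protein that binds nucleosomes in many tissues. The WT libraries wt_284, wt_290, wt_310 and wt_312 held 214, 328, 148 and 219 counts of it, and ko_306, ko_314 and ko_320 held 500, 378 and 519. Scaled to library size, its level was 25.9, 31.0, 22.6 and 28.1 CPM in these WT libraries and 43.1, 56.4 and 66.1 CPM in these KO libraries. Every KO library lay above every WT library, and the library with the abundant myeloid transcripts, wt_284, sat inside the WT range. KO stood 2.05-fold above WT, with a 95% interval of 1.48 to 2.83. Without wt_284 the log2 difference was 1.02, close to 1.03 with all 7 libraries. The KO libraries were less alike than the WT libraries, with a standard deviation of log2 CPM of 0.31 in KO and 0.19 in WT. Over the 9896 tested genes of at least 10 CPM, the median of that deviation was 0.24 in KO and 0.30 in WT.

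Among all 15372 tested genes, 1 was called by edgeR's quasi-likelihood test with Benjamini-Hochberg adjustment at 0.05, which is 0.00651% of them. It was Emcn, so 0 of the 9 HMG members were called. Before adjustment 503 genes (3.27%) had a p under 0.05, Hmgn3 being the single member among them. DESeq2 called 12 of 19730 genes (0.0608%) and edgeR without a filter 81 of 29739 (0.272%), Hmgn3 among them in both, while limma-voom called 0 of 15372 and had 439 before adjustment. Every KO library lay above every WT library for 374 genes, 2.43% of those tested, and of the 9 members this held for Hmgn3 alone. Counting both directions, the groups did not overlap for 747 genes (4.86%), and again for 1 of the 9 members. Of the 9896 genes of at least 10 CPM, 16 had a log2 difference as high as that of Hmgn3, itself included. Counted separately over the same 9896 genes, 5 (0.0505%), Hmgn3 included, stood at least 2-fold higher in KO with no overlap. Because the family was picked for Hmgn3 in this same contrast, these counts place the gene and test nothing. The member with the next highest ratio was Hmgn1, 1.22-fold above WT in KO with overlapping groups.

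**Figure D1:**
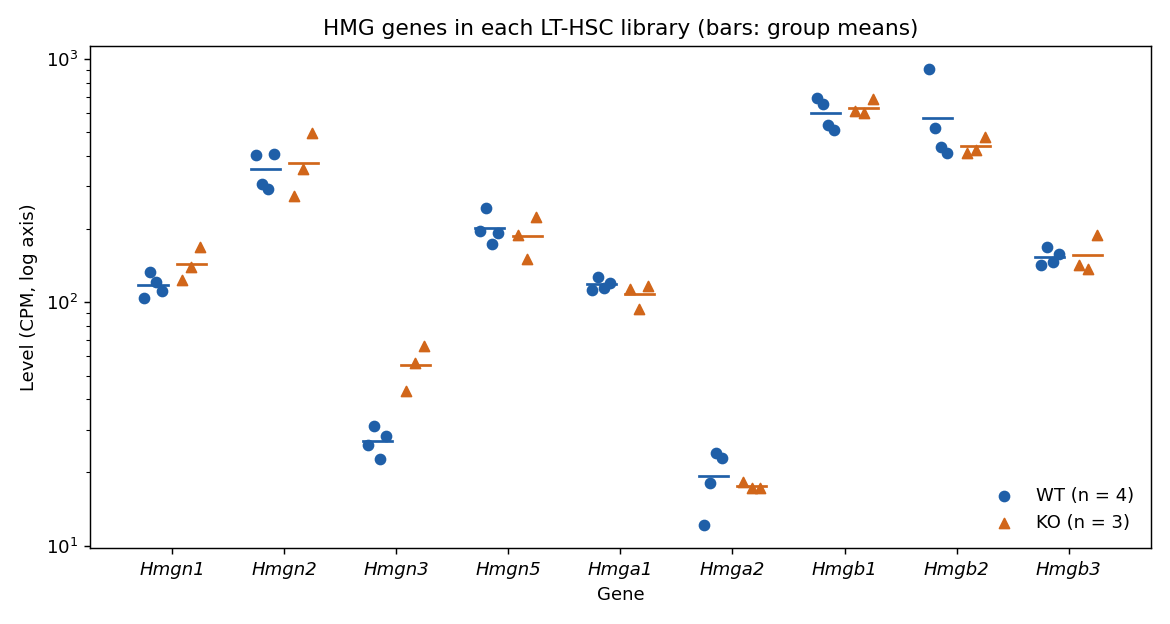
Level of each HMG gene in CPM (log axis) in each library, with WT and KO libraries as separate points. For Hmgn3 the 3 KO points (43.1 to 66.1 CPM) lie above the 4 WT points (22.6 to 31.0 CPM), whereas the groups overlap for the other 8 genes, and for Hmgb2 the wt_284 point at 911 CPM stands above the rest.

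Hmgn1 (ENSMUSG00000040681.16, chr16:96120618-96127729, minus strand) encodes a nucleosome-binding protein that loosens chromatin. Its level was 104, 133, 122 and 112 CPM in wt_284, wt_290, wt_310 and wt_312, and 123, 139.7 and 168 CPM in ko_306, ko_314 and ko_320. The upper KO libraries, ko_314 and ko_320, exceeded every WT library, while ko_306 fell within the WT range. The log2 difference was 0.29 (95% interval -0.05 to 0.63), and 0.24 without wt_284.

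Hmgn2 (ENSMUSG00000003038.15, chr4:133964738-133968650, minus strand) encodes a close relative of Hmgn1 that also binds nucleosomes throughout the genome. It stood at 401, 307, 293 and 408 CPM in wt_284, wt_290, wt_310 and wt_312, and at 274, 353 and 496 CPM in ko_306, ko_314 and ko_320. The lowest and the highest of all 7 libraries were both KO, and the log2 difference was 0.09 (-0.35 to 0.53), or 0.16 without wt_284. Hmgn5 (ENSMUSG00000031245.8, chrX:109004534-109013404, minus strand), the long acidic member, stood at 196, 245, 174 and 193 CPM in the same WT libraries and at 189, 151 and 223 CPM in the same KO libraries. Its groups overlapped, ko_314 being the lowest library and wt_290 the highest, with a log2 difference of -0.10 (-0.48 to 0.27), or -0.12 without wt_284.

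Set against its relatives, Hmgn3 made up 3.57%, 4.33%, 3.70% and 3.80% of the summed CPM of the 4 HMGN genes in wt_284, wt_290, wt_310 and wt_312. In ko_306, ko_314 and ko_320 its share was 6.84%, 8.05% and 6.93%. The shares of the groups do not overlap, as for Hmgn3 itself, on which they rest. As a ratio to Hmgn1, Hmgn3 ran from 18.6% to 25.2% in WT and from 34.9% to 40.3% in KO. The HMGN sum ran from 612 to 741 CPM in WT and from 629 to 953 CPM in KO, with overlap.

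**Figure D2:**
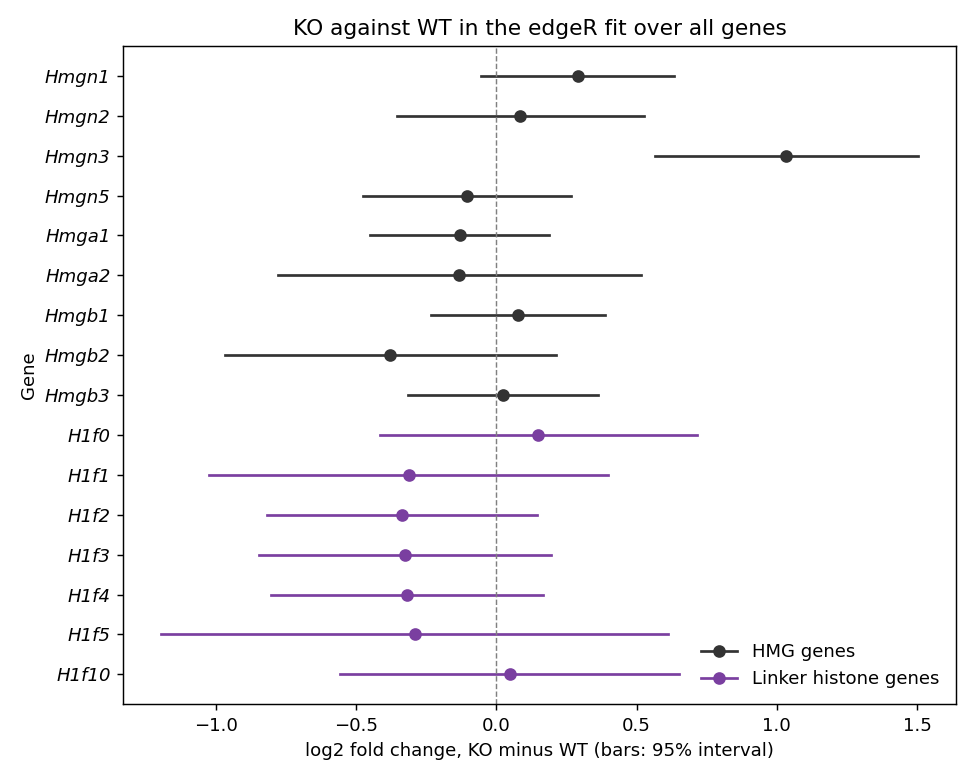
Log2 difference of KO minus WT for each HMG gene and, in a second colour, each of the 7 linker histone genes. Bars give the 95% interval from the edgeR fit over all tested genes. The interval of Hmgn3 lies above 0, from 0.56 upwards, and those of the other 8 members include 0; no member was called after adjustment over all genes.

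Hmga1 (ENSMUSG00000046711.16, chr17:27556497-27563674, plus strand) encodes an AT-hook protein that is abundant in embryonic and dividing cells. Its level was 112, 127, 115 and 120.3 CPM in wt_284, wt_290, wt_310 and wt_312, and 114, 94.1 and 117 CPM in ko_306, ko_314 and ko_320. It was the steadiest member in WT, with a standard deviation of log2 CPM of 0.08, and the groups overlapped apart from a low ko_314. The log2 difference was -0.13 (-0.45 to 0.19), and -0.15 without wt_284. Transcripts of Hmga1b match an annotated coding sequence of Hmga1 at 100% of its bases. Hmga1b had 47, 51, 0 and 4 counts in these WT libraries and 103, 120 and 3 in these KO libraries. With Hmga1b added, the level ran from 115 to 132 CPM in WT and from 112 to 123 CPM in KO, with ko_314 the lowest at 112 CPM.

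Hmga2 (ENSMUSG00000056758.14, chr10:120361275-120476469, minus strand) encodes the AT-hook protein known for promoting stem cell self-renewal in fetal tissue. It stood at 12.1, 18.0, 24.0 and 23.0 CPM in wt_284, wt_290, wt_310 and wt_312, and at 18.3, 17.3 and 17.2 CPM in ko_306, ko_314 and ko_320. The KO libraries fell within the WT range, whose lowest value was wt_284, and the log2 difference was -0.13 (-0.78 to 0.52). Without wt_284 the WT range began at 18.0 CPM, ko_314 and ko_320 lay below it, and the log2 difference was -0.30. The standard deviation of log2 CPM was 0.44 in WT and 0.05 in KO.

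Hmgb1 (ENSMUSG00000066551.12, chr5:149046702-149184489, minus strand) encodes the widespread DNA-bending HMG-box protein that also acts as an extracellular alarm signal. Its level was 688, 655, 536 and 511 CPM in wt_284, wt_290, wt_310 and wt_312, and 609, 599 and 683 CPM in ko_306, ko_314 and ko_320. All KO libraries lay inside the WT range, and the log2 difference was 0.08 (-0.23 to 0.39). Without wt_284, the highest WT library, ko_320 lay above the WT range and the log2 difference was 0.15.

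Hmgb2 (ENSMUSG00000054717.7, chr8:57511907-57515999, plus strand) encodes a close relative of Hmgb1 that is abundant in dividing blood progenitors. It stood at 911, 519.7, 434 and 412 CPM in wt_284, wt_290, wt_310 and wt_312, and at 412, 424 and 479.6 CPM in ko_306, ko_314 and ko_320. The other 6 libraries overlapped between 412 and 519.7 CPM, and wt_284 was 1.75 times the highest of them. The log2 difference was -0.38 (-0.97 to 0.21), and without wt_284 it was -0.05. The 29 cycling-cell markers moved with the same library: 21 of them were highest in wt_284, whose sum was 6275 CPM. Of the neutrophil and monocyte markers, 18 of 18 were highest there. The part of either in the Hmgb2 level was not tested.

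Hmgb3 (ENSMUSG00000015217.11, chrX:71555918-71560676, plus strand) encodes the HMG-box protein known from early blood progenitors. Its level was 142, 169, 146 and 158 CPM in wt_284, wt_290, wt_310 and wt_312, and 142, 138 and 189.9 CPM in ko_306, ko_314 and ko_320. The KO libraries held both the lowest and the highest value, and the log2 difference was 0.02 (-0.31 to 0.36), or -0.01 without wt_284. The ratio of Hmgb1 to Hmgb2 ran from 0.755 to 1.26 in WT and from 1.41 to 1.48 in KO. These ratios do not overlap, but the pair was noticed after the values were seen, and the ratio of 0.755 is that of wt_284. The other WT ratios ran from 1.24 to 1.26. The separation held only for Hmgb1 without its near-identical copies, which are described below. With these copies added to Hmgb1, the ratios of the groups overlapped. The share of gene pairs with ratios that do not overlap was not counted, so nothing is drawn from the separation.

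Over the 9 members, 5 log2 differences were positive and 4 negative, with a median of 0.02. Over all tested genes 7317 were positive and 8055 negative, with a median of -0.02. The summed HMG level was 0.190% to 0.234% of the library's counts in WT and 0.199% to 0.237% in KO, so the groups overlapped in the total.

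Per kilobase of exon, which allows genes to be compared, Hmgb2 had the highest level in WT at 189.6 ± 77.5 CPM per kb (SD, n = 4). Hmgb1 followed at 119 ± 17.4, Hmgn2 at 115 ± 19.8 and Hmgn5 at 104 ± 15.5 CPM per kb. In the middle stood Hmgb3 at 68.9 ± 5.49, Hmga1 at 55.8 ± 3.18 and Hmgn1 at 36.5 ± 3.94 CPM per kb. Hmgn3 and Hmga2 closed the order at 14.4 ± 1.89 and 2.85 ± 0.80 CPM per kb. The WT ranges of Hmgb1 and Hmgn2 overlapped, as did those of Hmgn2 and Hmgn5, and each of these orders held in 5 of 7 libraries. The other neighbours did not overlap and kept their order in 7 of 7. Hmgb2 and Hmgb1 lay only just apart in WT, with a lowest Hmgb2 value of 137.3 and a highest Hmgb1 value of 137.0 CPM per kb. The near-identical copies of Hmgb1 summed to 345 to 396 CPM in WT. With these added to Hmgb1 alone, the order of the 2 WT means did not hold. Hmgb2 has such copies too, and the order with copies added to both genes was not worked out. In KO, Hmgn3 stood at 29.5 ± 6.19 CPM per kb (SD, n = 3), still the eighth of 9 and below Hmgn1 at 44.6. Length was taken from the union of all annotated exons, and with the mean transcript length Hmgb1 led and Hmgn1 and Hmgn5 changed places with others, while Hmgn3 and Hmga2 stayed last.

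The HMG genes have spread many processed copies through the genome, which bears on how their reads are assigned. For Hmgb1, 105 annotated copies had at least 90% identity over at least 80% of the coding sequence of an annotated transcript. That transcript could be a short one, so the covered share of the longest coding sequence can be lower. Together these copies held 20776 counts against 36552 for Hmgb1 itself. Hmgn3 and Hmgn5 had 0 such copies. Between these, Hmgn2 had 25 copies with 4.53% of its own counts, Hmgb3 had 12 with 5.09%, Hmgb2 had 9 with 5.56% and Hmgn1 had 5 with 1.21%. Hmga1 and Hmga2 had 1 each, with 328 counts against 6835 for Hmga1 and 57 against 1090 for Hmga2.

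One copy of Hmgb1, the processed pseudogene Gm15387 (chr15:74093686-74094333, minus strand), held 16308 of those counts. The stretch below is shown because it holds the single difference between the coding sequence of Hmgb1 and this copy, 1 of 645 bases, marked by the capital. Counted from 1 at the first base of the coding sequence it is A21G.
Hmgb1: aggagatcctaaAaagccgagaggc
Gm15387: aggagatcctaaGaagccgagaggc
The counts listed for Gm15387 were 41.8% to 59.7% of those listed for Hmgb1 in WT libraries and 34.2% to 46.4% in KO libraries. The split of such reads between Hmgb1 and the copy is therefore uncertain. Summed over all 105 copies the level ran from 345 to 396 CPM in WT and from 283.6 to 355 CPM in KO. With the copies added to it, the log2 difference of Hmgb1 was -0.02 in place of 0.08.

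**Figure D3:**
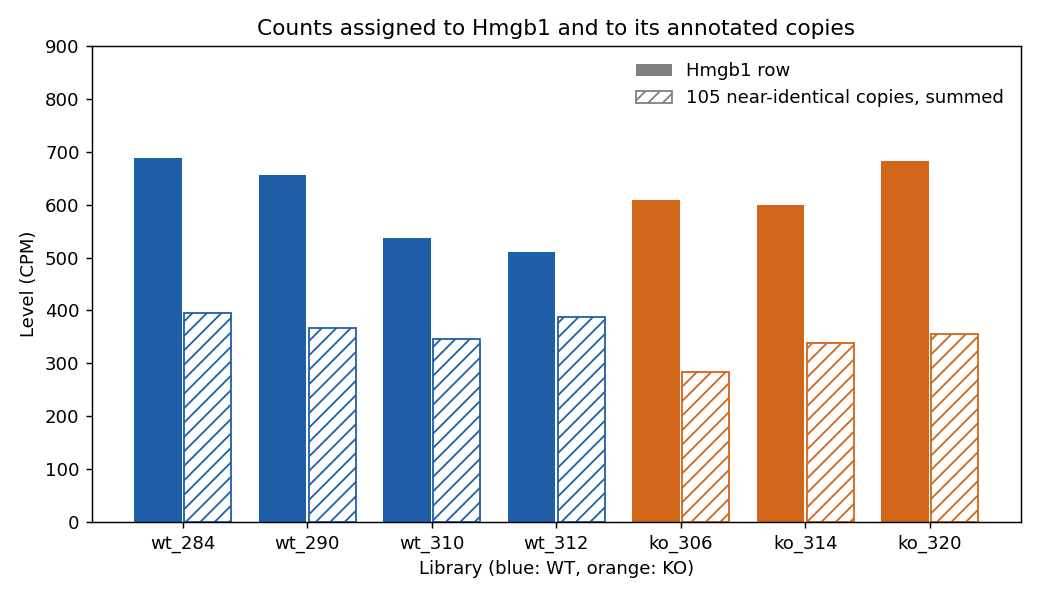
Level in CPM of Hmgb1 (solid) and of its 105 annotated near-identical copies summed (hatched) in each library. The copies range from 283.6 to 396 CPM, a sizeable share beside Hmgb1 at 511 to 688 CPM in every library.

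Hmgn3 has no such copy, and the genes that overlap it on the other strand held few counts, 15 over all libraries for Gm29054 and 1 for Gm2065. It has 9 annotated transcripts, 4 of them coding, which the gene counts cannot separate. Within 500 kb of Hmgn3 lay 18 other genes, of which 6 were tested and 7 had no count. Phip, a neighbour that encodes a bromodomain protein, had a log2 difference of 0.06 (-0.22 to 0.33). The other 5 tested neighbours had wide intervals that include 0: Sh3bgrl2 stood at -1.23 (-2.86 to 0.39), Irak1bp1 at -0.98 (-3.11 to 1.15), Gm38279 at 0.21, Lca5 at 0.40 (-0.95 to 1.75) and Rps27a-ps2 at 0.51 (-0.55 to 1.56).

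The genes most like Hmgn3 across the 7 libraries were ranked by the root mean square difference of centred log2(CPM + 0.5) among 9895 other tested genes of at least 10 CPM. Since Hmgn3 was picked for a KO against WT difference, genes with the same difference rank high by construction. The closest was Hacd1, which encodes an enzyme of very-long-chain fatty acid synthesis, at 0.149. It stood at 8.12, 10.01, 7.64 and 7.06 CPM in wt_284, wt_290, wt_310 and wt_312, and at 11.5, 17.3 and 18.0 CPM in ko_306, ko_314 and ko_320. Next came Chrnb1, a subunit of the muscle acetylcholine receptor, at 0.166, Gm49338 and the mitochondrial initiation factor gene Mtif2, both at 0.169, then the scramblase family gene Plscr4 at 0.202 and Exosc7, a subunit of the RNA exosome, at 0.203. In each of these the KO libraries lay above the WT libraries, with log2 differences from 0.67 for Exosc7 to 0.93 for Gm49338. Gm49338, Plscr4 and Exosc7 lie on chromosome 9, as Hmgn3 does, at positions outside the 500 kb window. The share of the compared genes on that chromosome was not counted, and a part of position was not tested. Of the HMG members Hmgn1 was the most like, at 0.387 and place 336, and Hmgb2 the least like, at 0.753 and place 7928.

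**Figure D4:**
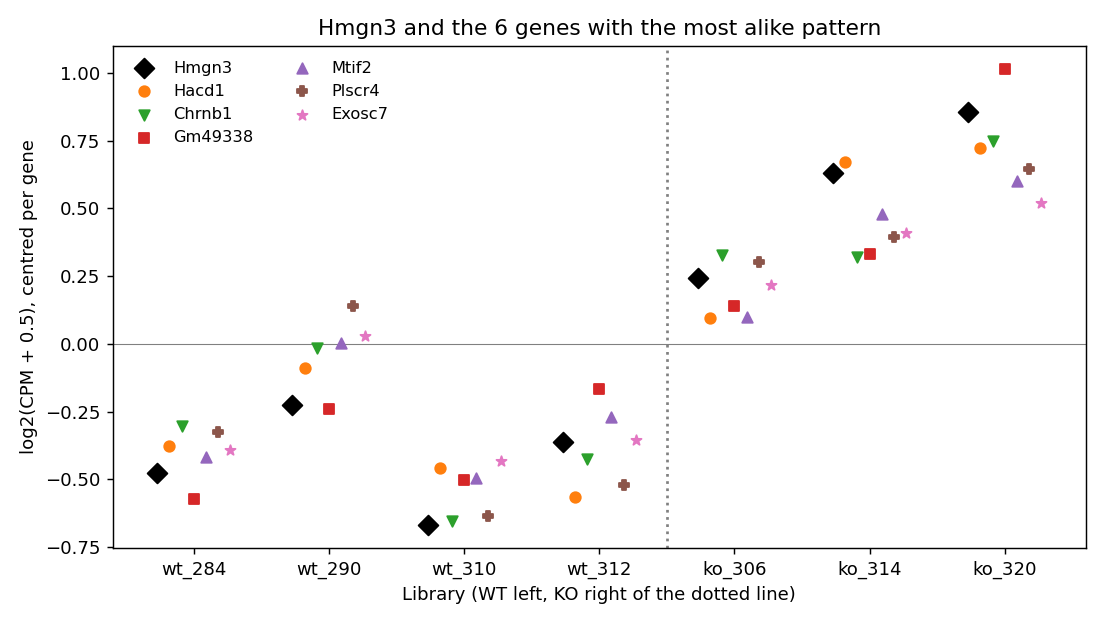
Centred log2(CPM + 0.5) of Hmgn3 and of the 6 genes with the most similar values, one column of points per library, WT left and KO right of the dotted line. For Hmgn3, ko_320 is highest and wt_310 lowest; the other 6 genes were chosen for their likeness to it.

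Around the HMG proteins stand others of the same fold or the same substrate. Of 32 other HMG-box genes 27 were tested, with 11 log2 differences positive and 16 negative, a median of -0.06 and 0 called. Kmt2d and Kmt2c, which encode histone H3 lysine methyltransferases, had the highest CPM of them, with log2 differences of -0.05 and 0.08. Wdhd1, a replication factor, stood at -0.29, Hmgxb3 at 0.22 and Hmga1b at 1.69 (-1.64 to 5.02), all with overlapping groups. Hmgb4 was at 0 in every library. Of 24 histone chaperone genes all were tested, with 10 positive, 14 negative, a median of -0.03 and 0 called. Ssrp1, a subunit of the FACT chaperone that itself carries an HMG box, averaged 384 CPM over WT and 389 CPM over KO libraries. Nucleolar chaperones held the highest CPM of that list, with log2 differences of 0.01 for Ncl and 0.18 for Npm1, while Anp32b stood at -0.20, Rbbp4 at -0.20 and Daxx at -0.27. Of 23 remodelling genes, 7 were positive and 16 negative, with a median of -0.03 and 0 called. Baz1a, a subunit of ISWI remodellers, stood at 301 CPM in wt_284 and between 106 and 163 CPM in the other 6 libraries. Baz2a and Smarca1 had log2 differences of -0.27 and -0.92, and the abundant Chd4 and Smarca2 had -0.05 and 0.17. In all 5 the groups overlapped. Without wt_284 the medians of the HMG-box, chaperone and remodelling lists lay between -0.04 and 0.00.

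Linker histones, which compete with HMGN proteins for chromatin, gave 2 positive and 5 negative differences over the 7 genes, with a median of -0.31 and 0 called. Without wt_284 that median was -0.05. The most abundant of the list by CPM, H1f2, stood at 915, 584, 529.6 and 466 CPM in wt_284, wt_290, wt_310 and wt_312, and at 451, 448 and 583 CPM in ko_306, ko_314 and ko_320. The groups overlapped and wt_284 was well above the rest, which was the highest library for 5 of the 7 linker histone genes. The log2 differences were -0.31 for H1f1, -0.34 for H1f2, -0.32 for H1f3 and H1f4, and -0.29 for H1f5, whose transcripts are made mainly during DNA replication. They were 0.15 for H1f0 and 0.05 for H1f10, which are also made outside it. The HMGN sum as a percentage of the linker histone sum ran from 27.0% to 56.3% in WT and from 44.8% to 52.3% in KO, with overlap, the lowest value being that of wt_284.

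The let-7 axis around Hmga2 gave 6 positive and 6 negative differences over the 12 of 14 genes tested, with a median of -0.04, or 0.01 without wt_284, and 0 called. Lin28b, which holds down let-7, stood at 1.33, 2.93, 3.36 and 7.19 CPM in wt_284, wt_290, wt_310 and wt_312, and at 1.72, 0 and 1.27 CPM in ko_306, ko_314 and ko_320. Its relative Lin28a stood at 22.7 CPM in wt_284 and at 0 to 2.46 CPM in the other 6 libraries. The log2 difference of Lin28a was -4.82 (-8.33 to -1.30), on 0 to 187 counts per library, most of its counts being those of wt_284. For both the groups overlapped. The log2 difference of Lin28b was -1.84 (-4.16 to 0.47), on 0 to 56 counts per library. Its overlap came from wt_284, and the other WT libraries, at 2.93 CPM and above, all lay over the KO libraries. How many genes separate in this way without wt_284 was not counted, so nothing is drawn from it. Arid3a, another let-7 target, reached 159 CPM in wt_284, between 35.6 and 50.1 CPM in the remaining WT mice and between 25.8 and 43.8 CPM in KO mice. Igf1r stood at 0.11 and Tut7, a terminal uridylyltransferase that acts on let-7 precursors, at -0.19 on the log2 scale, both with overlapping groups. Tut7 was highest in wt_284, at 446 CPM. Its paralogue Tut4 was the 1 of the 12 tested genes with no overlap, at 212 to 257 CPM in WT and 264 to 294 CPM in KO. The log2 difference of Tut4 was 0.20 (-0.09 to 0.48). Every KO library lay above every WT library for 2.43% of all tested genes.

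Receptors and adaptors of extracellular Hmgb1 gave 2 positive and 9 negative differences over the 11 of 12 genes tested, with a median of -0.31 and 0 called. Without wt_284 that median was -0.08. In wt_284 the highest of all 7 values was found for 9 of the 12, and for 23.1% of all tested genes. Trem1, a receptor of myeloid cells, reached 63.2 CPM in wt_284, between 1.54 and 2.36 CPM in the remaining WT mice and at most 0.60 CPM in KO mice. It was the 1 of the 11 tested genes with no overlap, with a log2 difference of -6.07 (-11.79 to -0.34) on 0 to 521 counts per library. Every KO library lay below every WT library for 2.43% of all tested genes. Cd24a, a surface glycoprotein that binds Hmgb1, reached 697 CPM in wt_284, between 192 and 254 CPM in the remaining WT mice and between 141 and 218 CPM in KO mice. Cxcr4, a chemokine receptor, reached 102 CPM in wt_284, between 15.8 and 46.3 CPM in the remaining WT mice and between 23.6 and 34.9 CPM in KO mice. Irak1 stood at 0.03 on the log2 scale with overlapping groups. The neutrophil and monocyte markers of wt_284, at 15326 CPM, moved with these genes, and their part was not tested.

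Hmgn3 and Hmgb2 differed in how far their KO minus WT value rested on single libraries. For Hmgn3 the log2 difference lay between 0.90 and 1.17 whichever library was left out. For Hmgb2 it lay between -0.49 and -0.05, and the value nearest to 0 was the one without wt_284. Hmgn3 was picked for groups that do not overlap, so that its value stayed above 0 was set by that choice and supports nothing.

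**Figure D5:**
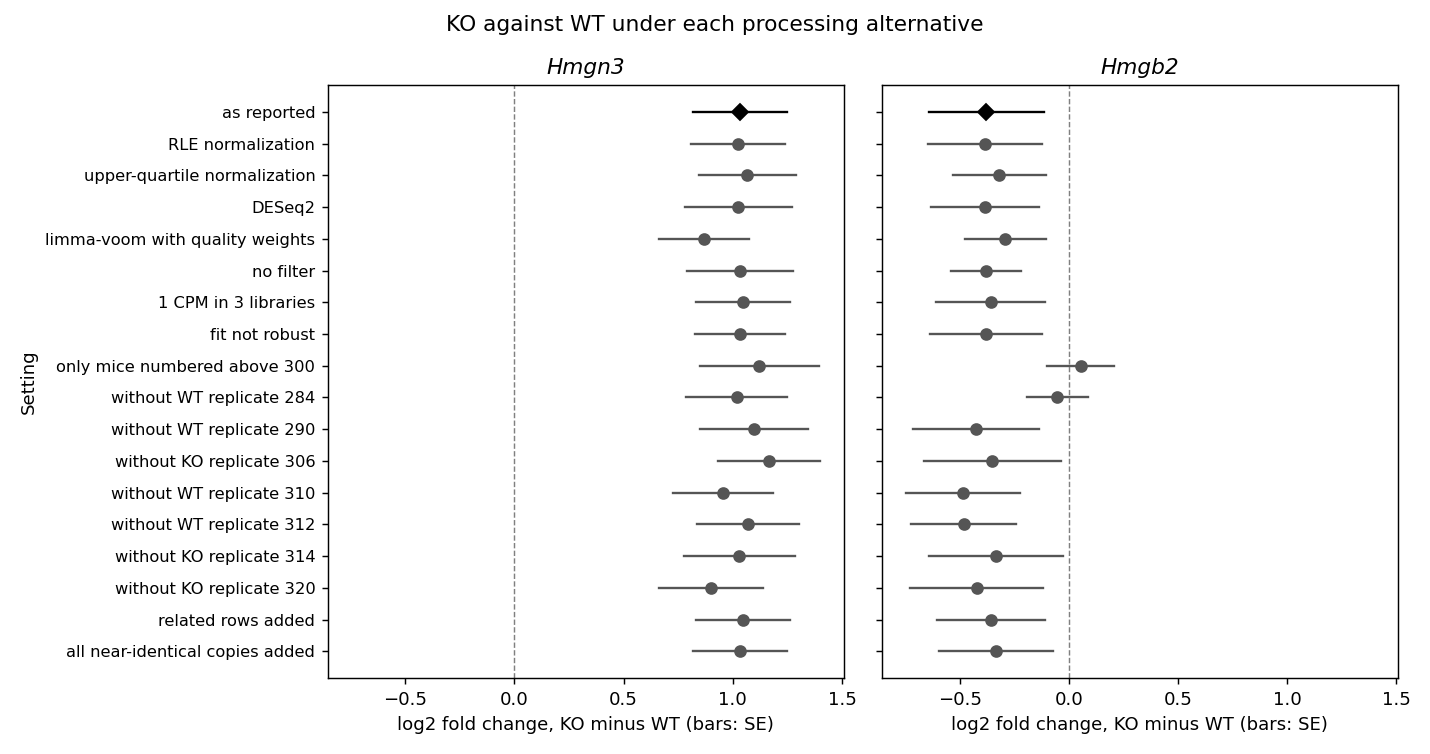
Log2 difference of KO minus WT for Hmgn3 (left) and Hmgb2 (right) under each processing alternative and with each library left out. Hmgn3, which was picked for this difference, ranged from 0.87 to 1.17. Hmgb2 ranged from -0.49 to 0.06 and was near 0 where wt_284 was left out.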

How the data were processed

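The deposited table gives unscaled whole-number counts for each gene, made with cutadapt and Salmon per the submitters' processing notes (versions not listed there). For the annotation, genome build and rounding, the sources used here give nothing. Per the labels' protocols, the kit was SMARTer stranded total RNA-Seq (Pico), read from both ends on a NextSeq 500, although the molecule label says polyA RNA. Of the gene identifiers, 98.1% are in GENCODE M21 (GRCm38) with the same version, which gave positions, lengths and sequences.

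Samples were grouped by the genotype label. KO was set against WT with the robust quasi-likelihood test of edgeR 4.0.16 (R 4.3.3) after filterByExpr and TMM scaling, with p adjusted by Benjamini-Hochberg over 15372 genes at a threshold of 0.05. The 95% intervals follow from the quasi-likelihood F. The fit was also run on simulated data, where it missed most 2-fold changes and the share of false calls was above the threshold. Between libraries the smallest chi-square per degree of freedom was 7.61, so none repeats another. Alternatives were DESeq2 1.42.0, limma-voom (limma 3.58.1) with quality weights, RLE and upper-quartile factors, no filter, at least 1 CPM in 3 or more libraries, a non-robust fit, mice numbered above 300 only, leaving out each mouse and, for levels, other lengths and raw totals. Counts of genes named after a member (-ps, -rs or Hmga1b) were also added to it. Adding copies found with blastn 2.17.0 to a member was chosen after seeing the data. Copies had exons of at most 2000 bases.

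The named genes are all members, the 6 genes most like Hmgn3, tested genes within 500 kb of it, and up to 3 genes of smallest p and 2 of highest CPM from each list, every linker histone included. Others named (Ssrp1, Tut4, Hmgb4, Gm15387 and the overlapping antisense genes) were picked once their values had been seen. The members and lists were chosen with earlier results of these data known.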

Additional observations from a re-analysis of the deposited data

Results flagged for a closer look

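In 32 sets of the 4 WT libraries (single genes and marker sums), 4 held 1 library far from the other 3 by Dixon's ratio, where chance gives about 1 in 20. Exosc7, one of the genes most like Hmgn3, stood at 32.7 CPM in wt_290 against 23.5 to 24.9 in the other WT libraries. The summed neutrophil and monocyte markers stood at 15326 CPM in wt_284 against 264 to 1337. The summed mast cell and basophil markers stood at 214 CPM in wt_284 against 10.5 to 38.1, with Tpsb2, Cma1 and Mcpt4 at 0 in every library. The summed lymphoid markers stood at 282 CPM in wt_284 against 13.2 to 33.5. The part of these markers in the HMG levels was not tested. Hmgn3 in wt_284 was 25.9 CPM, inside the range of the other WT libraries.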

How the results depend on the processing

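Hmgn3 stayed higher in KO under all 17 alternatives, from 0.87 (limma-voom) to 1.17 (without ko_306), and from 0.90 to 1.17 when 1 library was left out. Because Hmgn3 was picked for this difference, that it stayed higher supports nothing. The number of genes called was 1 as reported, 12 with DESeq2, 0 with limma-voom (439 at an unadjusted p under 0.05), 81 with no filter, 7 with mice above 300 only, and 1 to 3 with 1 library left out: 3 without wt_284 or ko_306, and 2 without wt_290 or ko_314. Hmgn3 was called by DESeq2 and by edgeR with no filter, at 1.03 in both. The cause of these differences was not tested. Hmgb2 was -0.05 without wt_284 and 0.06 with mice above 300 only, Hmgb1 was 0.27 with mice above 300 only, and Hmgn2 was -0.15 without ko_320. Hmgn5 and Hmgb3 also changed sign under some alternatives, within their intervals. No paired analysis was possible because no mouse number occurs in both genotypes and no label pairs the mice. With mice above 300 only, Hmga2 was -0.41 and the medians of the linker histones and of the Hmgb1 receptors were 0.08 and -0.03. Without wt_284, Hmga2 was -0.30, Hmgb1 was 0.15 and these medians were -0.05 and -0.08. Taken per mean transcript length, Hmgn3 stood at 36.4 CPM per kb in WT in place of 14.4. The lowest count in a library was 148 for Hmgn3 and 100 for Hmga2.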
